A study of Mus musculus with 13 samples.

Results

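The 10 genes described here, *Slc22a6*, *Slc47a1*, *Slc6a13*, *Slc13a4*, *Slc26a7*, *Igf2*, *Igfbp2*, *Aldh1a2*, *Crabp2* and *Ranbp3l*, mark the fibroblasts of the leptomeninges and of the spaces around brain vessels. They were chosen by symbol, each matched through its Ensembl identifier to 1 row of the deposited count table, and make up 10 of the 47643 genes in that table. All 10 passed the filter on low counts, which left 17285 genes for testing. RNA was sequenced from vasculature isolated from the frozen brains of 13 male CD1 mice aged 8 to 10 weeks. CD1 is an outbred stock.

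The 4 Sham_Vehicle mice received PBS in place of lipopolysaccharide. The 5 LPS_Vehicle mice received lipopolysaccharide (LPS, the outer membrane glycolipid of Gram-negative bacteria, here from Salmonella typhimurium) at 3 mg/kg into the peritoneum at 0, 6 and 24 h. The 4 LPS_CPD4645 mice received the same LPS and, after each LPS dose, a subcutaneous dose of 10 mg/kg CPD-4645, an inhibitor of monoacylglycerol lipase, in DMSO, Cremophor and saline. By their names, both other groups were given a vehicle in place of CPD-4645, and its composition is stated in the labels only together with the inhibitor. The labels put the delay at 30 min, while the study's text also names a longer one. All mice were euthanized at 28 h and the brains were not perfused, so blood in the vessels was part of the material. None of the 3 groups received CPD-4645 without LPS, and its action in unchallenged mice was not measured here.

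The leptomeninges, the arachnoid and the pia, cover the brain and follow the larger vessels into it, and their fibroblasts lie outside the endothelium and mural cells. Arachnoid barrier cells and pial fibroblasts carry transporters that move organic anions, organic cations, GABA, sulfate and other anions between cerebrospinal fluid and blood. These fibroblasts are also a source of retinoic acid and of insulin-like growth factor 2 in the brain. *Igf2*, *Igfbp2* and *Slc13a4* are known to be expressed by the choroid plexus epithelium as well, and *Igfbp2* by astrocytes.

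Library totals ran from 7813559 counts in LPS_Vehicle mouse 3 to 55133373 in LPS_Vehicle mouse 2, and the next shallowest library, LPS_CPD4645 mouse 1, held 12548404. The mitochondrial share of the counts was 6.47% to 12.7% in Sham_Vehicle, highest in mouse 4, 4.84% to 7.04% in LPS_Vehicle and 3.97% to 8.17% in LPS_CPD4645 libraries. Its part in the differences from Sham_Vehicle was not tested beyond leaving out that mouse, without which *Slc22a6* (-1.93) and *Slc47a1* (-2.48) still fell after LPS on the log2 scale. In all 22 pairs of replicates the spread between mice was larger than counting error. A list held 31 fibroblast matrix and general fibroblast markers, among them *Col1a1*, *Dcn*, *Lum* and *Pdgfra*. All 31 had counts in some library of each group. Such counts alone do not show that the labelled cells were represented. The 31 markers summed to 563 to 740 CPM (read counts scaled to the size of the library) in Sham_Vehicle libraries. The sum was 637 to 963 CPM in LPS_Vehicle and 574 to 797 in LPS_CPD4645 libraries. *Sparc* was its largest single part, at a mean of 302 CPM in Sham_Vehicle, 376 in LPS_Vehicle and 314 in LPS_CPD4645 mice. The 7 neuronal markers, such as *Snap25* and *Syt1*, summed to 7683 to 10436 CPM over the 13 libraries, so RNA of other brain cells was abundant in this vessel preparation. In such bulk samples, fewer cells of a type and less RNA per cell cannot be told apart.

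Per kilobase of exon, which allows genes to be compared, *Igfbp2* and *Igf2* had the highest levels of the 10 genes. In Sham_Vehicle mice *Igfbp2* stood at 34.5 CPM per kb ± 2.63 (SD, n = 4) and *Igf2* at 17.5 ± 0.804. *Aldh1a2* followed at 3.10 ± 0.829 CPM per kb, *Slc6a13* at 2.31 ± 0.594, *Slc13a4* at 2.18 ± 0.0780 and *Crabp2* at 2.10 ± 0.513, 4 levels that did not differ beyond their spread from one to the next. *Slc22a6* at 1.19 ± 0.361 CPM per kb and *Slc47a1* at 1.01 ± 0.408 could not be separated from each other either. *Slc26a7* at 0.296 ± 0.0324 and *Ranbp3l* at 0.158 ± 0.103 CPM per kb were the lowest. The values that follow are TMM-scaled CPM within a gene, without the length correction.

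The promoters of 4 of the genes are shown. *Slc22a6*, *Slc13a4* and *Igfbp2* were lower in LPS_Vehicle than in Sham_Vehicle mice by the adjusted p given below, which *Aldh1a2* missed. A link between these sequences and the changes was not tested. RefSeq (GRCm38.p6) gave windows of 250 bases before to 50 bases after a start site for 7 of the 10 genes, and none was matched for *Slc26a7*, *Slc47a1* and *Crabp2*. Each line gives the bases before the start that lie in no annotated exon, 5′ to 3′ on the gene's own strand, in lower case with matches to the searched motifs in capitals. They lie at chr19:8617746-8617995 on the plus strand for *Slc22a6*, chr6:35308132-35308376 on the minus strand for *Slc13a4*, chr1:72824230-72824479 on the plus strand for *Igfbp2* and chr9:71215539-71215788 on the plus strand for *Aldh1a2*.
Slc22a6: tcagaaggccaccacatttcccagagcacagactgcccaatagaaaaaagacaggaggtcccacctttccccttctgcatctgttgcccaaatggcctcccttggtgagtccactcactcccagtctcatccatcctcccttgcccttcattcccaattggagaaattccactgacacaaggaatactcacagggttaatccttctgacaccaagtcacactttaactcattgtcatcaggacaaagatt
Slc13a4: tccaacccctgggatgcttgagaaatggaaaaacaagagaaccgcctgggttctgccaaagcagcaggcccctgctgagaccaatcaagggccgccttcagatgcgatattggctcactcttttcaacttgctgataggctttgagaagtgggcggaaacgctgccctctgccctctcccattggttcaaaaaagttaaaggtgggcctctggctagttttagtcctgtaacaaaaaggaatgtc
Igfbp2: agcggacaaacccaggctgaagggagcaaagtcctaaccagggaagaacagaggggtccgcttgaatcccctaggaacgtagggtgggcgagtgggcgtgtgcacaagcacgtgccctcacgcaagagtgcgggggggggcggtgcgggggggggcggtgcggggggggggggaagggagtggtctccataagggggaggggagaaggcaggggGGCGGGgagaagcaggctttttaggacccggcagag
Aldh1a2: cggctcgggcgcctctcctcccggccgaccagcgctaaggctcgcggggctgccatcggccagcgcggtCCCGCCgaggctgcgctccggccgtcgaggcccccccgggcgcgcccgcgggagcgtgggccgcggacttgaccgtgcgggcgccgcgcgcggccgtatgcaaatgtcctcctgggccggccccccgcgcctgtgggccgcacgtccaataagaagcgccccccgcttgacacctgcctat

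The motifs were searched as exact letters on both strands of the whole windows. They were AGGTCA (the core element bound by retinoic acid and other nuclear receptors), TGTTTAC (forkhead factors), CCCGCC (a form of the GC box of Sp factors) and TATAAA (the TATA box). None of these motifs contains another. Of 32851 RefSeq windows of the same length, 16.3% held AGGTCA, 3.65% TGTTTAC, 35.3% CCCGCC and 13.6% TATAAA. None of the 4 motifs was found as written in the windows of *Slc22a6* and *Slc13a4*. The GGGCGG form of the GC box was not searched, and unmarked copies of it stand in the printed lines of *Slc13a4* and *Igfbp2*. *Igfbp2* held CCCGCC on the reverse strand, read as GGCGGG in the line above, and *Aldh1a2* held it on the forward strand. A further GGCGGG of *Igfbp2* spans the start and lies outside the printed stretch, and AGGTCA was found in 1 window each of *Slc6a13* and *Igf2*. CCCGCC also occurred in windows of *Slc6a13* and *Igf2*, on the reverse strand in *Igf2*. The 4 stretches also differed in base composition, with a GC content of 48.4% for *Slc22a6*, 50.6% for *Slc13a4*, 67.2% for *Igfbp2* and 77.6% for *Aldh1a2*. *Igf2* has several start sites, and gene-level counts do not tell which was used.

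In LPS_Vehicle mice against Sham_Vehicle mice, which asks what systemic LPS did in the vessel preparation, *Slc22a6* and *Slc47a1* fell at least 2-fold. *Igf2*, *Igfbp2* and *Slc13a4* were also lower, by less than 2-fold. At a threshold of adjusted p of 0.05 or less together with a 2-fold or larger change, 2 of the 10 genes were lower, where 0.995% of the 17285 genes were, with 3 lower by limma-voom (*Slc26a7* added) and 2 by DESeq2. None was higher in edgeR's quasi-likelihood test (0 genes), against 4.68% of all genes, and 0 were higher by limma-voom and by DESeq2, while 1 (*Aldh1a2*) was higher at an unadjusted p under 0.05. By the adjusted p alone, 5 were lower (8.86% of all genes) and 0 higher (11.1%). In 6 of the 10 genes, *Slc26a7* being the sixth, every LPS_Vehicle mouse lay below every Sham_Vehicle mouse (8.44% of all genes), and in 0 every one lay above (9.68%). The log2 fold changes of the 10 genes had a median of -0.77 and ran from -2.25 to 0.73, with 8 below 0, whereas the median of all genes was -0.00065.

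In LPS_CPD4645 mice against LPS_Vehicle mice, which asks what the inhibitor changed under LPS, the 10 genes did not move one way. *Slc22a6* fell further in edgeR, a call kept under 10 of 23 alternatives, *Igf2* and *Crabp2* were higher by less than 2-fold, and the other genes missed the adjusted p. The threshold was passed by 1 gene that was lower (4.19% of all genes), with 0 lower by limma-voom and 1 by DESeq2, and by 0 that were higher (1.7%) in edgeR, with 2 higher at an unadjusted p under 0.05, 1 (*Crabp2*) by limma-voom and 0 by DESeq2. By the adjusted p alone, 1 was lower (16.4% of all genes) and 2 were higher (14.1%). The groups did not overlap for 0 genes in the lower direction (12% of all genes) and for 1 gene, *Igf2*, in the higher direction (11.1%). The median log2 fold change of the 10 genes was -0.11, with 5 below 0, beside -0.023 over all genes.

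In LPS_CPD4645 mice against Sham_Vehicle mice, *Slc22a6*, *Slc47a1* and *Slc6a13* fell at least 2-fold. These 3 genes were the ones lower by the threshold (4.98% of all genes), and 0 were higher in edgeR (6.11%), with 0 by limma-voom, 0 by DESeq2 and 1 (*Crabp2*) at an unadjusted p under 0.05. By the adjusted p alone the counts were again 3 lower (19.3% of all genes) and 0 higher (19.5%). Every LPS_CPD4645 mouse lay below every Sham_Vehicle mouse in 5 genes, all of them solute carriers (18.8% of all genes), and above in 0 (18.7%). The median log2 fold change was -0.44 with 8 genes below 0, beside -0.014 over all genes. The 3 comparisons share libraries pairwise, so their values for a gene are given side by side below and are not independent of each other.

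**Figure D1:**
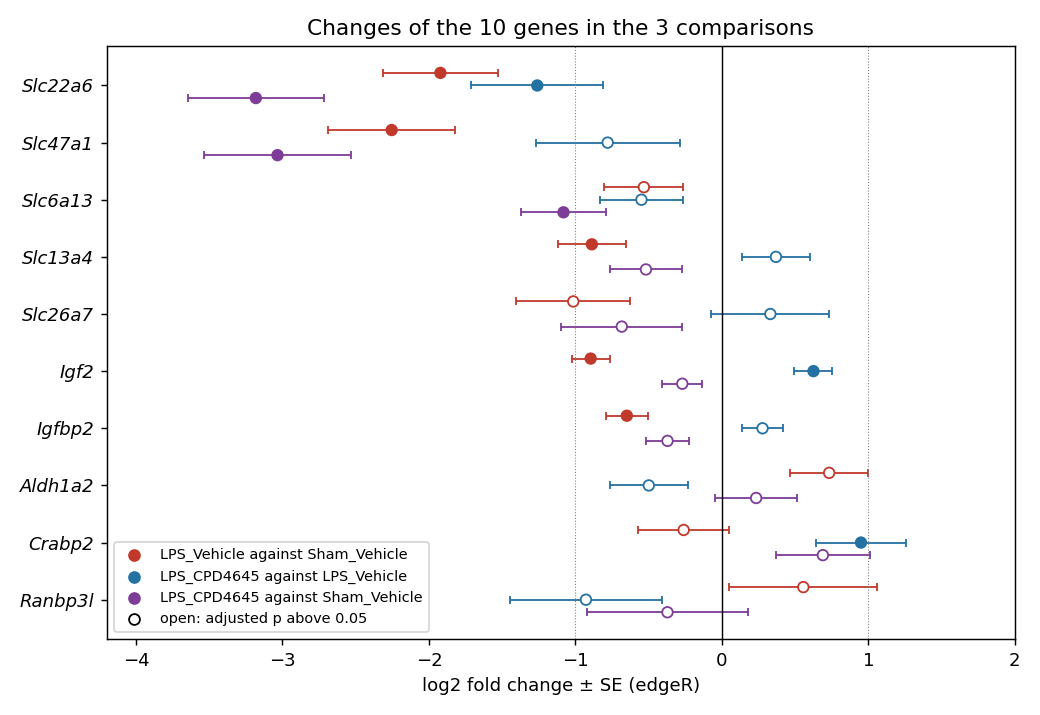
Log2 fold change of each of the 10 genes (horizontal axis, edgeR fit, bars ± SE) in the 3 comparisons, with filled points at an adjusted p of at most 0.05, open points above it and dotted lines at a 2-fold change. *Slc22a6* and *Slc47a1* lie beyond -1.9 in both comparisons with Sham_Vehicle, while *Igf2* is at -0.90 after LPS and at 0.63 when LPS_CPD4645 is compared with LPS_Vehicle.

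*Slc22a6* (ENSMUSG00000024650.4, GRCm38 chromosome 19, 8618039 to 8628299, plus strand) encodes OAT1, an organic anion transporter that takes up prostaglandins, uremic toxins and many drugs. The Sham_Vehicle mice had 5.48, 2.73, 6.01 and 4.74 CPM, the LPS_Vehicle mice 0.858, 1.06, 0.126, 1.94 and 1.85 CPM and the LPS_CPD4645 mice 0.395, 0.420, 0.678 and 0.549 CPM. Every mouse given LPS lay below every Sham_Vehicle mouse. The lowest value, in LPS_Vehicle mouse 3, was a single count in the shallowest library and lay below all 4 LPS_CPD4645 mice, so those groups overlapped. The level fell 3.79-fold after LPS (log2 fold change -1.92, SE 0.39, adjusted p = 0.0018). It fell 2.40-fold between LPS_Vehicle and LPS_CPD4645 (log2 fold change -1.26, SE 0.45, adjusted p = 0.0415) and 9.07-fold between Sham_Vehicle and LPS_CPD4645 (-3.18, SE 0.47, adjusted p = 3.89e-05).

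The fall of *Slc22a6* between LPS_Vehicle and LPS_CPD4645 passed the threshold in 10 of 23 alternatives. It missed the adjusted p without any one of Sham_Vehicle mice 1 (adjusted p = 0.0569), 3 (0.0567) and 4 (0.0555). It missed it also without LPS_Vehicle mouse 4 (log2 fold change -1.03, adjusted p = 0.105) or 5 (-1.07, 0.0931), or LPS_CPD4645 mouse 1 (-1.17, 0.0862), 2 (-1.16, 0.110) or 4 (-1.28, 0.0794). With limma-voom it was -1.15 (adjusted p = 0.169). Both falls against Sham_Vehicle kept their sign in every alternative run, although a test against the 2-fold change itself left the LPS_Vehicle one at an adjusted p of 0.121.

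*Slc47a1* (ENSMUSG00000010122.14, chromosome 11, 61343401 to 61378345, minus strand) encodes MATE1, which exports organic cations in exchange for protons. Its levels were 3.51, 3.38, 5.06 and 1.68 CPM in Sham_Vehicle, 0.996, 0.771, 0.882, 0.630 and 0.358 CPM in LPS_Vehicle, and 0.237, 0.210, 0.263 and 0.903 CPM in LPS_CPD4645 mice. All 9 mice given LPS were below the lowest Sham_Vehicle mouse. LPS_CPD4645 mouse 4 stood apart from the other 3 of its group, which rested on 3 to 7 counts each. The level fell 4.77-fold after LPS (log2 fold change -2.25, SE 0.44, adjusted p = 0.0011) and 8.19-fold between Sham_Vehicle and LPS_CPD4645 (-3.03, SE 0.50, adjusted p = 0.00012). Between LPS_Vehicle and LPS_CPD4645 the log2 fold change was -0.78 (SE 0.49, adjusted p = 0.244). Without LPS_CPD4645 mouse 4 it was -1.56 (SE 0.50, adjusted p = 0.0318) between the groups given LPS and -3.81 (SE 0.51, adjusted p = 2.98e-05) between Sham_Vehicle and LPS_CPD4645.

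**Figure D2:**
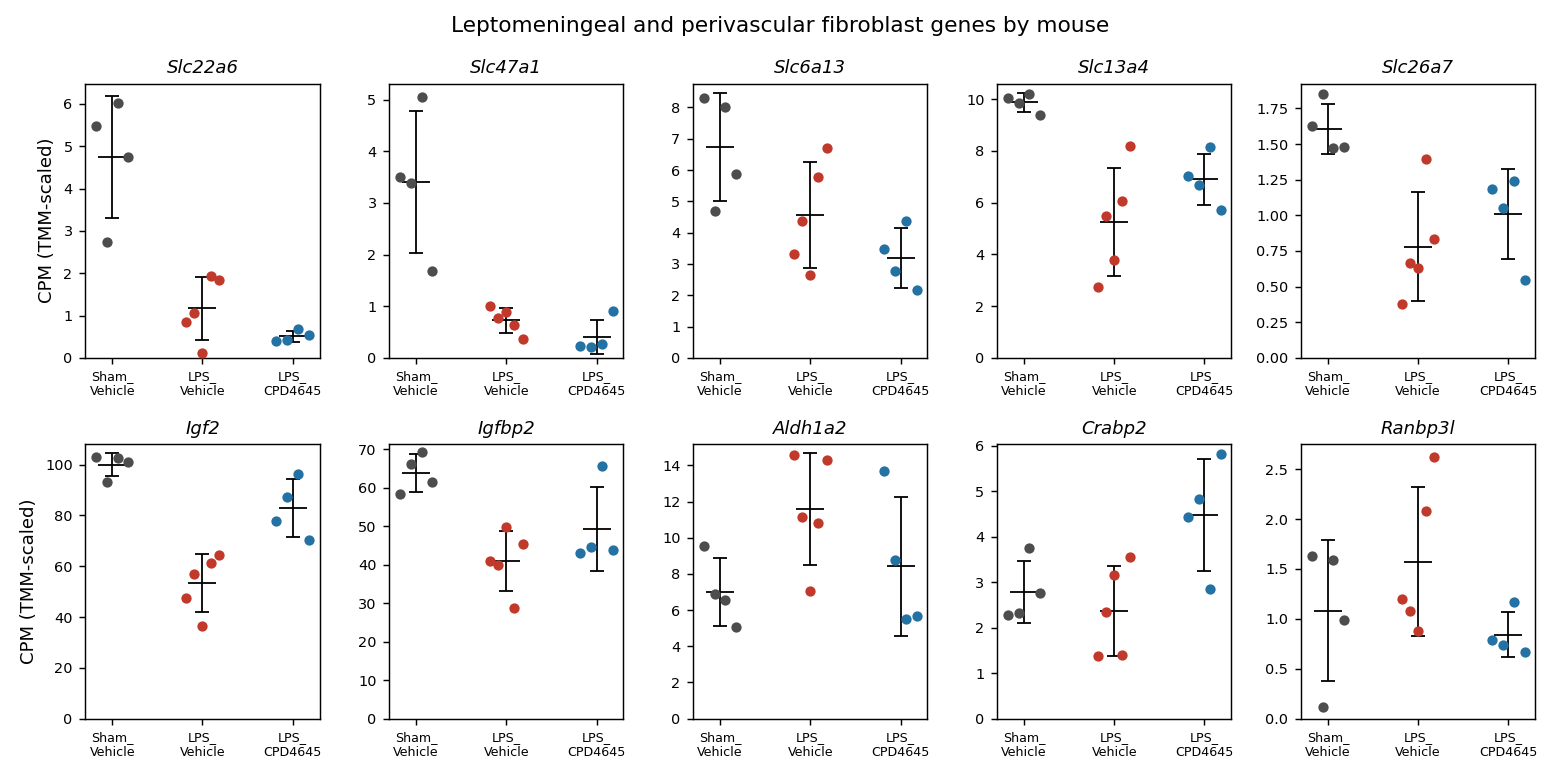
Level of each of the 10 genes in every mouse (vertical axes, TMM-scaled CPM starting at 0), by group, with a short horizontal line at the group mean and bars of ± 1 SD (n = 4, 5 and 4). The panels of *Slc22a6* and *Slc47a1* show all 9 mice given LPS below the Sham_Vehicle mice, and the panel of *Igf2* shows the LPS_Vehicle mice at 36.4 to 64.5 CPM below both other groups.

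*Slc6a13* (ENSMUSG00000030108.14, chromosome 6, 121300227 to 121337733, plus strand) encodes GAT2, a transporter of GABA and taurine of meningeal fibroblasts. It stood at 8.30, 4.71, 8.01 and 5.88 CPM in Sham_Vehicle mice, at 3.33, 4.36, 2.65, 5.78 and 6.71 CPM in LPS_Vehicle mice and at 3.48, 2.76, 4.37 and 2.16 CPM in LPS_CPD4645 mice. The LPS_Vehicle mice overlapped both other groups, whereas the LPS_CPD4645 mice all lay below the Sham_Vehicle mice. The log2 fold change was -0.53 (SE 0.27, adjusted p = 0.182) after LPS, -0.55 (SE 0.28, adjusted p = 0.149) between LPS_Vehicle and LPS_CPD4645 and -1.08 (SE 0.29, adjusted p = 0.0071) between Sham_Vehicle and LPS_CPD4645, a 2.12-fold fall. That fall was smaller than 2-fold without Sham_Vehicle mouse 1 (-0.96), Sham_Vehicle mouse 3 (-0.98) or LPS_CPD4645 mouse 4 (-0.92), with adjusted p values of 0.0273, 0.0258 and 0.0298.

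*Slc13a4* (ENSMUSG00000029843.4, chromosome 6, 35267957 to 35308131, minus strand) encodes a sodium-coupled sulfate transporter. Its 4 Sham_Vehicle values lay close together, at 10.0, 9.85, 10.2 and 9.38 CPM. The LPS_Vehicle mice had 2.75, 5.47, 3.78, 6.08 and 8.17 CPM and the LPS_CPD4645 mice 7.04, 6.68, 8.13 and 5.73 CPM. Both groups given LPS were below all Sham_Vehicle mice and overlapped each other. The level was 1.85-fold lower after LPS (log2 fold change -0.89, SE 0.23, adjusted p = 0.0110), and it passed the 2-fold threshold without LPS_Vehicle mouse 5 (-1.10, SE 0.22, adjusted p = 0.0016) and with the replicate number as a block (-1.13, SE 0.23, adjusted p = 0.0031). The log2 fold change was 0.37 (SE 0.24, adjusted p = 0.249) between LPS_Vehicle and LPS_CPD4645, and -0.52 (SE 0.25, adjusted p = 0.104) between Sham_Vehicle and LPS_CPD4645.

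*Slc26a7* (ENSMUSG00000040569.13, chromosome 4, 14502430 to 14621805, minus strand), of a family of chloride, bicarbonate and sulfate transporters, was scarce. It had 1.63, 1.85, 1.47 and 1.48 CPM in Sham_Vehicle, 0.378, 0.664, 0.630, 1.40 and 0.835 CPM in LPS_Vehicle and 1.19, 1.05, 1.24 and 0.549 CPM in LPS_CPD4645 mice. Neither group given LPS reached the lowest Sham_Vehicle mouse, although LPS_Vehicle mouse 4 came close to it. With all mice the gene missed the adjusted p after LPS in edgeR (-1.01 on the log2 scale, SE 0.39, adjusted p = 0.0766) and passed the threshold by limma-voom (-1.11, SE 0.36, adjusted p = 0.0353) and voomWithQualityWeights (-1.05, adjusted p = 0.0397). Without LPS_Vehicle mouse 4 it passed in edgeR (-1.35, SE 0.40, adjusted p = 0.0260). The difference between LPS_Vehicle and LPS_CPD4645 was 0.33 (SE 0.40, adjusted p = 0.564), and that between Sham_Vehicle and LPS_CPD4645 was -0.68 (SE 0.41, adjusted p = 0.204).

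The members' relatives in the families of organic ion, GABA and amino acid, sulfate and anion transporters formed a list of 32 genes, of which 28 were tested. After LPS, 1 fell, *Slc22a8* (the organic anion transporter OAT3), and 0 rose in edgeR, by limma-voom and by DESeq2. At an unadjusted p under 0.05, 7 were lower and 5 higher. By the adjusted p alone, 5 were lower (8.86% of all genes) and 1 was higher (11.1%). *Slc22a8* went from 29.0 CPM ± 3.83 (SD, n = 4) in Sham_Vehicle to 2.82 ± 1.09 (n = 5) in LPS_Vehicle and 2.65 ± 1.14 (n = 4) in LPS_CPD4645 mice. Like *Slc22a6* it was far below Sham_Vehicle in both groups given LPS. The median of the 28 genes was 0.18 on the log2 scale after LPS, against -0.77 for the 10 genes.

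Of the 28 relatives, 3 fell between LPS_Vehicle and LPS_CPD4645: *Slc6a20a*, a proline transporter, from 22.3 CPM ± 7.74 (SD, n = 5) to 11.3 ± 2.42 (n = 4), and the scarce *Slc22a2* and *Slc22a12*, which were named after their values were seen. None rose in edgeR (0 genes), with 4 higher at an unadjusted p under 0.05, 1 by limma-voom and 1 by DESeq2. Against Sham_Vehicle, 3 fell in LPS_CPD4645 mice, among them *Slc6a9*, a glycine transporter (log2 fold change -1.02, SE 0.12, adjusted p = 4.83e-06), and *Slc26a10* (-1.01, SE 0.25, adjusted p = 0.0042). The only relative that rose there was *Slc6a12*, a betaine and GABA transporter (1.49, SE 0.44, adjusted p = 0.0119), of the same family as *Slc6a13*, which fell.

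*Igf2* (ENSMUSG00000048583.16, chromosome 7, 142650766 to 142666816, minus strand) encodes insulin-like growth factor 2, a secreted ligand of the insulin-like growth factor receptors. The Sham_Vehicle mice had 103, 93.1, 102 and 101 CPM, the LPS_Vehicle mice 47.3, 56.8, 36.4, 61.4 and 64.5 CPM and the LPS_CPD4645 mice 77.8, 87.3, 96.2 and 70.1 CPM. The LPS_Vehicle mice were the lowest 5 of the 13, and the LPS_CPD4645 mice lay between them and Sham_Vehicle, overlapping the latter through mouse 3. *Igf2* was 1.86-fold lower after LPS (log2 fold change -0.90, SE 0.13, adjusted p = 6.43e-05) and 1.54-fold higher in LPS_CPD4645 than in LPS_Vehicle mice (0.63, SE 0.13, adjusted p = 0.0016). Between Sham_Vehicle and LPS_CPD4645 the difference was -0.27 (SE 0.14, adjusted p = 0.126). Of the 10 genes it was the only one with an adjusted p of at most 0.05 in opposite directions in the first 2 comparisons, which share the LPS_Vehicle libraries.

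Reads of *Igf2* could be shared with overlapping genes. *Igf2os*, on the other strand, shares 98 exon bases with it and had 73 counts over the 13 libraries, and *Mir483*, on the same strand, had 0. *Gm49394*, which shares 3596 exon bases on the same strand in the annotation used here, is not a row of the count table.

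*Igfbp2* (ENSMUSG00000039323.18, chromosome 1, 72824503 to 72852474, plus strand) encodes a secreted protein that binds insulin-like growth factors. It had 58.4, 66.2, 69.2 and 61.3 CPM in Sham_Vehicle, 41.0, 40.0, 49.7, 28.7 and 45.2 CPM in LPS_Vehicle and 42.9, 44.6, 65.5 and 43.9 CPM in LPS_CPD4645 mice. All LPS_Vehicle mice lay below all Sham_Vehicle mice, and LPS_CPD4645 mouse 3 stood apart from its group at a Sham_Vehicle level. The level was 1.57-fold lower after LPS (log2 fold change -0.65, SE 0.14, adjusted p = 0.0030). It was -0.37 (SE 0.15, adjusted p = 0.0575) between Sham_Vehicle and LPS_CPD4645, where leaving out LPS_CPD4645 mouse 3 gave -0.53 (adjusted p = 0.0063), LPS_Vehicle mouse 3 -0.37 (0.0480) and LPS_Vehicle mouse 4 -0.37 (0.0258). Between LPS_Vehicle and LPS_CPD4645 it was 0.28 (SE 0.14, adjusted p = 0.149).

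The choroid plexus markers did not move one way. The 13 markers of the list, a sum made up mostly of *Ttr*, came to 365 to 743 CPM in Sham_Vehicle (median 483), 201 to 407 in LPS_Vehicle (median 216) and 269 to 812 in LPS_CPD4645 libraries (median 461), and none was at 0 in a whole group. Their median log2 fold change was -0.13 after LPS and -0.14 between LPS_Vehicle and LPS_CPD4645, beside -0.00065 and -0.023 over all genes. *Ttr*, the thyroid hormone carrier that dominates choroid plexus RNA, stood at 463 CPM ± 177 (SD, n = 4), 226 ± 104 (n = 5) and 451 ± 247 (n = 4). It fell after LPS (log2 fold change -1.04, SE 0.34, adjusted p = 0.0410) and rose between LPS_Vehicle and LPS_CPD4645 (SE 0.34, adjusted p = 0.0350). Of the 13 markers, 2 fell (*Ttr* and *Kcnj13*) and 1 rose (*Trpv4*) after LPS, 0 fell and 2 rose (*Ttr* and *Kcne2*) between LPS_Vehicle and LPS_CPD4645, with 2 lower at an unadjusted p under 0.05 and 0 by limma-voom and by DESeq2, of which each called 1 higher, and 2 fell (*Sostdc1* and *Kcnj13*) and 0 rose between Sham_Vehicle and LPS_CPD4645, with 2 higher at an unadjusted p under 0.05 and 0 by limma-voom and by DESeq2. *Trpv4*, a cation channel, went the other way from *Ttr*, with 1.80 after LPS (SE 0.24, adjusted p = 2.39e-05) and -0.93 between LPS_Vehicle and LPS_CPD4645 (SE 0.23, adjusted p = 0.0050). The part of the choroid plexus in the levels of *Igf2*, *Igfbp2* and *Slc13a4* was not tested. The 8 astrocyte markers, which include *Gfap*, summed to 1383 to 1733 CPM in Sham_Vehicle, 1817 to 2419 in LPS_Vehicle and 1753 to 2299 in LPS_CPD4645 libraries. *Gfap*, a gene of reactive astrocytes, made up much of that difference, at 95.2 CPM ± 24.8, 504 ± 109 and 366 ± 60.8, and *Gjb6* rose too. *Aldh1l1* (0.98 on the log2 scale, adjusted p = 4.58e-06) and *Fgfr3* (0.60, adjusted p = 0.0023) were higher after LPS by less than 2-fold, which made 4 of 8 higher by the adjusted p, whereas *Slc1a2*, *Slc1a3*, *Gja1* and *Aqp4* had log2 fold changes of -0.15 to 0.12 after LPS and did not pass.

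Of 24 other genes of insulin-like growth factor signalling 21 were tested, and after LPS 4 rose and 0 fell in edgeR, with 1 lower at an unadjusted p under 0.05 and 0 past the threshold by limma-voom and by DESeq2. That 1 gene was *Igf1*, the related growth factor, at 20.1 CPM ± 7.75 (SD, n = 4) in Sham_Vehicle, 12.5 ± 2.73 (n = 5) in LPS_Vehicle and 13.6 ± 2.86 (n = 4) in LPS_CPD4645 mice. Like *Igf2* it was lower after LPS by less than 2-fold (log2 fold change -0.70, SE 0.22, adjusted p = 0.0324), and it differed by 0.14 (SE 0.23, adjusted p = 0.667) between LPS_Vehicle and LPS_CPD4645. *H19*, the imprinted noncoding RNA that neighbours *Igf2*, rose from 0.285 CPM ± 0.159 (SD, n = 4) to 3.72 ± 1.12 (n = 5) and stood at 2.21 ± 1.01 (n = 4) in LPS_CPD4645 mice. *Igfbp3*, the main carrier of these growth factors in blood, rose from 22.5 CPM ± 4.92 in Sham_Vehicle to 60.8 ± 9.49 in LPS_Vehicle and 142 ± 24.9 in LPS_CPD4645 mice. *Htra1*, a secreted protease that cleaves binding proteins, went from 149 ± 20.5 to 363 ± 67.9 and 538 ± 65.2 CPM, and *Stc1*, an inhibitor of another such protease, from 6.73 ± 1.69 to 15.5 ± 5.62 CPM after LPS.

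In LPS_CPD4645 against LPS_Vehicle mice 2 of the 21 rose, *Igfbp3* (log2 fold change 1.22, SE 0.14, adjusted p = 1.21e-05) and *Igfals*. *Igfals*, the third protein of the circulating growth factor complex and named after its values were seen, stood at 0.866 to 2.20 CPM in LPS_CPD4645 mice and reached at most 0.0717 CPM in LPS_Vehicle and 0.143 CPM in Sham_Vehicle mice. None fell in edgeR (0 genes), with 2 lower at an unadjusted p under 0.05 and 0 by limma-voom and by DESeq2. Against Sham_Vehicle, 5 rose in LPS_CPD4645 mice: *Igfals*, whose levels are given above, *H19* (2.91, SE 0.45, adjusted p = 7.03e-05), *Igfbp3* (2.66, SE 0.16, adjusted p = 3.29e-09), *Htra1* (1.85, SE 0.14, adjusted p = 3.84e-08) and *Igfbp7* (1.33, SE 0.19, adjusted p = 3.1e-05), and 0 fell, with 5 lower at an unadjusted p under 0.05 and 0 by limma-voom and by DESeq2. The receptors *Igf1r* and *Igf2r* did not pass in any comparison: *Igf1r* stood at 52.7 ± 4.03, 51.3 ± 8.67 and 44.5 ± 2.43 CPM and *Igf2r* at 33.8 ± 5.74, 32.8 ± 1.68 and 31.0 ± 2.27 CPM in Sham_Vehicle, LPS_Vehicle and LPS_CPD4645 mice.

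*Aldh1a2* (ENSMUSG00000013584.5, chromosome 9, 71215789 to 71296243, plus strand) encodes RALDH2, which makes retinoic acid from retinaldehyde. Its levels were 9.56, 6.88, 6.57 and 5.04 CPM in Sham_Vehicle, 14.6, 11.2, 7.06, 10.8 and 14.3 CPM in LPS_Vehicle and 13.7, 8.78, 5.53 and 5.65 CPM in LPS_CPD4645 mice. Of the 5 LPS_Vehicle mice 4 lay above all Sham_Vehicle mice, and mouse 3, from the shallowest library, did not. LPS_CPD4645 mouse 1, from the next shallowest library, was the highest of its group. The log2 fold change after LPS was 0.73 (SE 0.26, adjusted p = 0.0593). It was 0.92 (adjusted p = 0.0373) without Sham_Vehicle mouse 1, 0.85 (0.0276) without LPS_Vehicle mouse 3 and 0.73 (0.0319) without LPS_CPD4645 mouse 1, and adjusted p values were 0.0292 by limma-voom and 0.0255 by DESeq2.

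The LPS_CPD4645 mice differed from LPS_Vehicle mice in *Aldh1a2* by -0.50 on the log2 scale (SE 0.26, adjusted p = 0.164), and by -0.80 (SE 0.25, adjusted p = 0.0242) without LPS_CPD4645 mouse 1. Between Sham_Vehicle and LPS_CPD4645 it was 0.23 (SE 0.28, adjusted p = 0.538), and -0.072 without that mouse. *Aldh1a2* was thus not among the genes called in any of the 3 comparisons, and its values differed in direction from those of the solute carriers after LPS.

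*Crabp2* (ENSMUSG00000004885.5, chromosome 3, 87948666 to 87953376, plus strand) encodes a binding protein that carries retinoic acid to its nuclear receptors. It stood at 2.28, 2.33, 3.74 and 2.77 CPM in Sham_Vehicle mice, at 1.37, 2.35, 3.15, 1.40 and 3.55 CPM in LPS_Vehicle mice and at 4.43, 4.83, 2.86 and 5.81 CPM in LPS_CPD4645 mice. LPS_CPD4645 mice 1, 2 and 4 were the 3 highest of the 13, and mouse 3 lay within the range of both other groups. *Crabp2* was 1.93-fold higher in LPS_CPD4645 than in LPS_Vehicle mice (log2 fold change 0.95, SE 0.31, adjusted p = 0.0255), just short of 2-fold. It differed by -0.26 (SE 0.31, adjusted p = 0.617) between Sham_Vehicle and LPS_Vehicle and by 0.69 (SE 0.32, adjusted p = 0.0989) between Sham_Vehicle and LPS_CPD4645, the latter 0.87 (adjusted p = 0.0481) without LPS_CPD4645 mouse 3.

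The higher level of *Crabp2* in LPS_CPD4645 than in LPS_Vehicle mice passed the 2-fold threshold without LPS_Vehicle mouse 3 (1.04), LPS_Vehicle mouse 5 (1.18) or LPS_CPD4645 mouse 3 (1.13) and with limma-voom (1.04, adjusted p = 0.0123). It missed the adjusted p without LPS_Vehicle mouse 1 (0.80, adjusted p = 0.0639), LPS_Vehicle mouse 4 (0.80, 0.0638), LPS_CPD4645 mouse 2 (0.91, 0.0652) or LPS_CPD4645 mouse 4 (0.81, 0.0872).

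The retinoic acid list held 23 other genes, of which 21 were tested. After LPS 2 rose and 1 fell. *Stra6*, the cell surface receptor through which vitamin A is taken up, rose from 4.51 CPM ± 0.779 (SD, n = 4) to 38.1 ± 17.9 (n = 5), which is 3.07 on the log2 scale (SE 0.33, adjusted p = 2.93e-06). *Tgm2*, a transglutaminase known to respond to retinoic acid, rose from 13.5 ± 4.04 to 88.3 ± 15.4 CPM, and *Cyp26b1*, which degrades retinoic acid, fell from 8.44 ± 1.13 to 3.95 ± 0.408 CPM.

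*Stra6* fell again, to 9.35 CPM ± 4.29 (n = 4), in LPS_CPD4645 against LPS_Vehicle mice (-2.05 on the log2 scale, SE 0.32, adjusted p = 0.00015), and was the only 1 of the 21 to pass, with 0 higher in edgeR, by limma-voom and by DESeq2 and 4 higher at an unadjusted p under 0.05. Against Sham_Vehicle, *Tgm2* (2.18, SE 0.19, adjusted p = 2.12e-07) and *Stra6* (1.02, SE 0.34, adjusted p = 0.0235) rose in LPS_CPD4645 mice, where limma-voom called 1 higher and DESeq2 2, and 0 fell, with 3 lower at an unadjusted p under 0.05 and 0 by limma-voom and by DESeq2. *Aldh1a1*, the other abundant enzyme of the reaction that *Aldh1a2* catalyses, stood at 41.6 ± 6.80, 47.9 ± 10.9 and 48.5 ± 9.33 CPM in Sham_Vehicle, LPS_Vehicle and LPS_CPD4645 mice and did not pass in any comparison.

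*Ranbp3l* (ENSMUSG00000048424.15, chromosome 15, 8967949 to 9067335, plus strand) encodes a Ran-binding protein involved in the nuclear export of SMAD proteins. It had 1.63, 0.121, 1.59 and 0.988 CPM in Sham_Vehicle, 1.20, 1.08, 0.882, 2.08 and 2.62 CPM in LPS_Vehicle and 0.791, 0.734, 1.17 and 0.667 CPM in LPS_CPD4645 mice. The groups overlapped in all 3 comparisons, and Sham_Vehicle mouse 2 rested on 3 counts. The log2 fold changes were 0.56 (SE 0.51, adjusted p = 0.496) after LPS, -0.93 (SE 0.52, adjusted p = 0.190) between LPS_Vehicle and LPS_CPD4645 and -0.37 (SE 0.55, adjusted p = 0.624) between Sham_Vehicle and LPS_CPD4645. Its libraries held 3 to 88 counts each.

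Mouse by mouse, 6 to 8 of the 10 genes lay below every Sham_Vehicle mouse in the LPS_Vehicle libraries, where 26.0% to 33.7% of all genes tested did. In the LPS_CPD4645 libraries 5 to 7 did so, beside 33.2% to 35.6% of all genes. In both groups 0 to 2 of the 10 genes lay above every Sham_Vehicle mouse, beside 27.7% to 34.5% of all genes. Summed over the 10 genes, the level was 191 to 214 CPM in Sham_Vehicle, 105 to 148 in LPS_Vehicle and 136 to 186 in LPS_CPD4645 libraries, a sum made up mostly of *Igf2* and *Igfbp2*.

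A ratio taken within each library shows how unequally the genes changed relative to each other. As log2 of the ratio to *Igf2*, *Slc22a6* averaged -4.43 ± 0.433 (SD, n = 4) in Sham_Vehicle, -5.77 ± 1.04 (n = 5) in LPS_Vehicle and -7.17 ± 0.309 (n = 4) in LPS_CPD4645 mice. The *Slc6a13* ratio ran from -4.29 to -3.62, from -3.80 to -3.25 and from -4.98 to -4.44 in the same order, so LPS_CPD4645 mice lay below both other groups without overlap. For *Slc13a4* the ranges were -3.42 to -3.23, -4.07 to -2.97 and -3.69 to -3.45, closer together than for the other genes. The *Aldh1a2* ratio was higher in every LPS_Vehicle mouse (-2.50 to -1.69) than in every Sham_Vehicle mouse (-4.31 to -3.42). These ratios combine values already tested above and are given without a test of their own.

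**Figure D3:**
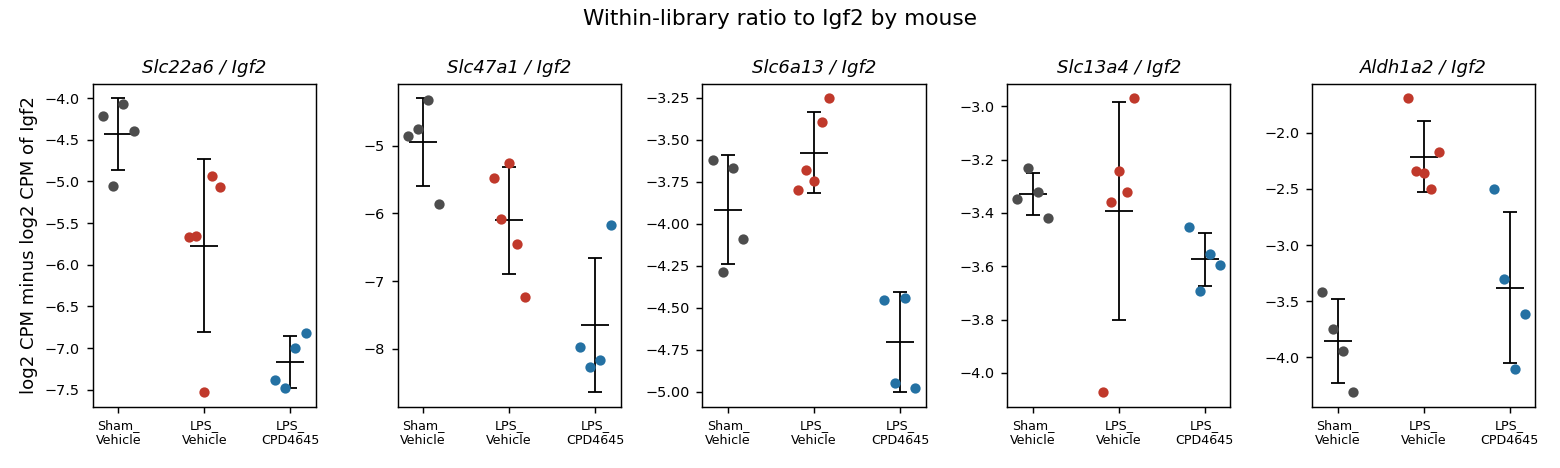
Log2 CPM minus log2 CPM of *Igf2* in each mouse (vertical axes, not starting at 0) for 5 of the genes, by group, with the group mean and ± 1 SD (n = 4, 5 and 4). LPS_CPD4645 mice have the lowest *Slc6a13* ratios, from -4.98 to -4.44, and LPS_Vehicle mice have *Aldh1a2* ratios of -2.50 to -1.69, above all Sham_Vehicle mice.

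Matrix and general fibroblast genes moved both ways after LPS. Of 31 on the list 29 were tested, with a median log2 fold change of 0.11 after LPS, and 5 fell (*Ogn*, *Fmod*, *Mfap4*, *Col3a1* and *Clec3b*) while 3 rose (*Serping1*, *Mgp* and *Col8a1*). *Ogn* (osteoglycin) and *Fmod* (fibromodulin), small proteoglycans that organise collagen, went from 5.15 CPM ± 1.31 (SD, n = 4) to 1.65 ± 0.974 (n = 5) and from 15.5 ± 1.99 to 5.87 ± 2.53. *Serping1*, the inhibitor of complement C1, rose from 8.34 ± 2.17 to 30.3 ± 7.29 CPM. *Dcn* (decorin), by contrast, stood at 34.5 ± 1.11 CPM in Sham_Vehicle, 50.4 ± 8.91 in LPS_Vehicle and 56.3 ± 16.5 in LPS_CPD4645 mice.

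With the inhibitor added to LPS, 0 of the 29 passed in either direction in edgeR and in DESeq2, with 1 lower and 0 higher by limma-voom and 7 lower and 2 higher at an unadjusted p under 0.05. Against Sham_Vehicle, *Ogn* (-2.04, SE 0.43, adjusted p = 0.0012), *Col3a1* (-1.38, SE 0.25, adjusted p = 0.00032) and *Col1a1* (-1.28, SE 0.33, adjusted p = 0.0049) fell in LPS_CPD4645 mice, and *Serping1* rose (1.67, SE 0.23, adjusted p = 1.83e-05). The median over the 29 genes was -0.25 and -0.32 in these last 2 comparisons.

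Another list held 45 leptomeningeal and arachnoid genes, of which 44 were in the table and tested, *Slc22a8*, *Slc6a12*, *Slc6a20a* and *Slc22a2* being shared with the transporter list. After LPS 3 fell (*Slc22a8*, *Angptl2* and *Bmp4*) and 4 rose (*Apod*, *Cyp1b1*, *Fxyd5* and *Gjb6*), with a median of -0.18. *Angptl2*, a secreted glycoprotein of the angiopoietin-like family, fell from 6.25 CPM ± 1.29 to 1.25 ± 0.553, and *Apod*, a lipid-binding apolipoprotein, rose from 282 ± 44.5 to 1549 ± 367. *Cyp1b1*, a cytochrome P450 of perivascular cells, rose from 3.96 ± 0.702 to 12.2 ± 4.27 CPM.

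Of these 44 genes, 2 fell in LPS_CPD4645 against LPS_Vehicle mice (*Slc6a20a* and *Slc22a2*) and 0 rose in edgeR, with 5 higher at an unadjusted p under 0.05, 1 by limma-voom and 1 by DESeq2. Against Sham_Vehicle, 4 fell in LPS_CPD4645 mice (*Slc22a8*, *Angptl2*, *Dpp4* and *Wnt6*) and 4 rose (*Apod*, *Cyp1b1*, *Gjb6* and *Slc6a12*). *Gjb6* is also a marker of astrocytes and stands on both lists. *Clec3b*, *Mgp*, *Col8a1*, *Bmp4*, *Fxyd5*, *Gjb6*, *Dpp4*, *Wnt6*, *Dcn*, *Igf1*, *Igf1r*, *Igf2r*, *Aldh1a1* and the astrocyte markers other than *Gfap* were named after their values were seen.

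**Figure D4:**
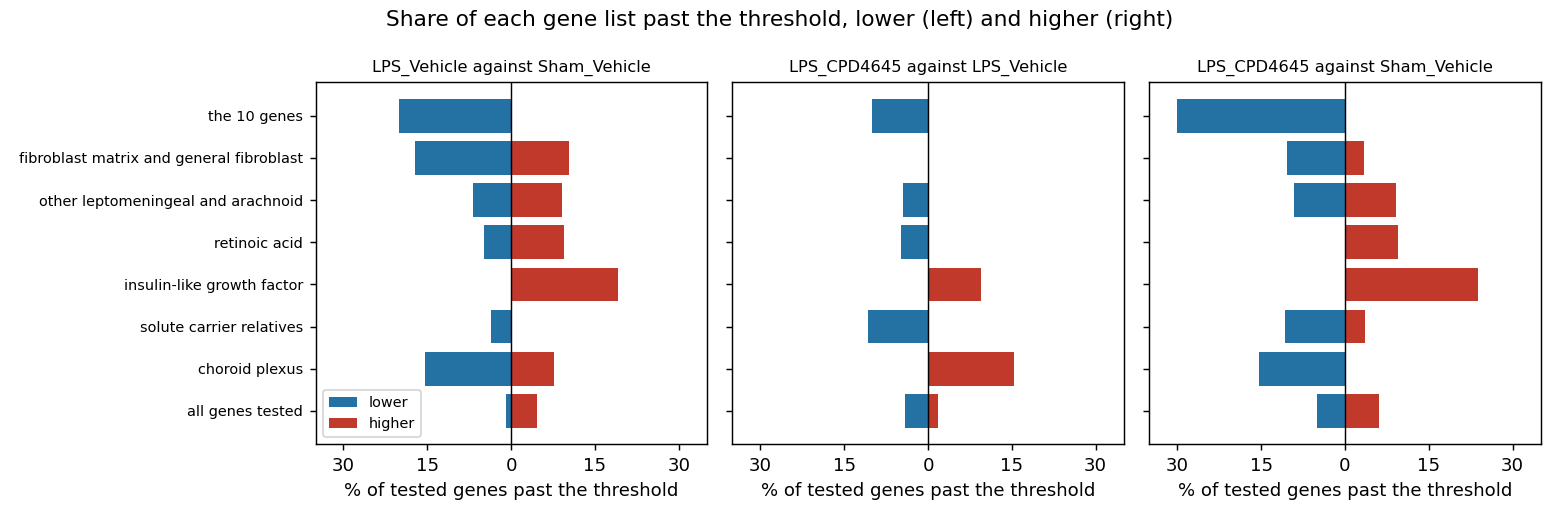
Share of the tested genes of each list past the threshold (horizontal axes, percent, lower to the left and higher to the right) in the 3 comparisons, with all genes tested at the bottom. The lists hold 10 to 44 tested genes and the shares are descriptions without a test. For the 10 genes, bars appear on the lower side only, at 20%, 10% and 30%.

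The genes whose profile over the 13 mice was most like the mean profile of the 10 were sought among 14835 others with a mean of at least 1 CPM. Likeness was the root mean square difference between mean-centred log2 CPM, which had a median of 0.498 over those genes. The 10 closest, from 0.181 to 0.206, were *Gprc5b*, *Smad7*, *Smco4*, *Bmp3*, *S1pr5*, *Fam81a*, *Cdkn1c*, *Bgn*, *Crybg3* and *Jcad*. *Smad7* is an inhibitor of TGF-beta signalling, *Bmp3* a bone morphogenetic protein, *Cdkn1c* an inhibitor of cyclin-dependent kinases and *Bgn* the matrix proteoglycan biglycan, which also stands on the fibroblast list. All 10 had their highest group mean in Sham_Vehicle, which follows from their choice, because the mean profile itself was highest there. The members themselves lay at 0.298 (*Slc6a13*) to 1.22 (*Slc47a1*) from the mean of the other members, so the mean profile describes *Slc6a13*, *Slc13a4* and *Igf2* better than *Slc22a6*, *Slc47a1* and *Ranbp3l*.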

How the data were processed

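Vasculature was isolated from frozen brains of 13 mice, and poly(A) RNA of each mouse was sequenced as 1 stranded library from 50 ng RNA. According to the submitters' processing notes, bcl2fastq 2.15.0.4 and STAR 2.5.2a were used with mm10 (GRCm38). The authors used STAR to count reads per gene (GENCODE M9, basic set) and deposited whole-number counts without normalization. The strand column kept from STAR is not given in the sources used here, so reads of genes on opposite strands may be counted together. Symbols and positions came from GENCODE M21 on the same build, and 47224 of 47643 identifiers matched once the version was dropped. Groups and replicate numbers were taken from the sample labels.

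Tests were run on the counts in edgeR 4.0.16 (R 4.3.3). A filter on low counts, filterByExpr with minimum count 10 and minimum total 15, left 17285 of 27934 genes with any count, and libraries were scaled by TMM (factors 0.908 to 1.08). One quasi-likelihood fit of the 3 groups without covariates gave all comparisons. Adjusted p values are Benjamini-Hochberg values over all 17285 genes, and the threshold was the study's own, adjusted p of 0.05 or less with a 2-fold or larger change. SE is the size of the log2 fold change divided by the square root of edgeR's F. Log2 CPM used a prior count of 2. Lists of related and marker genes were written from general knowledge, and the members and lists were chosen with earlier results of these data known. All 10 members are named, and from each list at most the 4 genes past the threshold with the largest change and a mean of at least 1 CPM per comparison. Genes named after their values were seen are marked as such. Some gene-level results are not reported here. Promoter windows came from RefSeq (GRCm38.p6). Total counts per library ran from 7813559 to 55133373, which leaves genes under 1 CPM with few counts in the shallow libraries.

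The test was also run on simulated counts, and the outcome of that run is not reported here. The alternatives were limma-voom (limma 3.58.1, the study's test), voomWithQualityWeights, DESeq2 1.42.0, DESeq2's size factors in edgeR, low counts left in, genes with a mean count of 50 or more, only the groups compared, the replicate number as a block, glmTreat against the 2-fold change, and each mouse left out in turn. Leaving out the 2 shallowest libraries together was added after seeing the data. Summaries used Python 3.11.15 with pandas 2.3.3 and numpy 2.4.6, and plots matplotlib 3.10.9.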

Additional observations from a re-analysis of the deposited data

Results flagged for a closer look

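In each gene and group, the mouse farthest from the others was compared with Dixon's 95% critical value, which is 0.829 for 4 samples. In this test of 30 groups 2 were picked out, and chance picks out about 1 in 20. *Slc47a1* stood at 0.903 CPM in LPS_CPD4645 replicate 4, with a gap to the nearest of the other 3 mice of 0.923 of the whole range. *Igfbp2* stood at 65.5 CPM in LPS_CPD4645 replicate 3, with a gap of 0.926 of the range. These are 2 different mice, and in each the other 9 genes were not picked out.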

How the results depend on the processing

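With each of 13 mice left out in turn, 2 to 3 of the 10 genes were lower after LPS, 0 to 1 were lower and 0 to 1 higher in LPS_CPD4645 than in LPS_Vehicle mice, and 2 to 3 were lower in LPS_CPD4645 than in Sham_Vehicle mice, while 0 were higher in both comparisons with Sham_Vehicle. After LPS 1 gene was lower at a mean count of at least 50 (*Slc22a6*), where *Slc47a1*, *Slc26a7* and *Ranbp3l* were not tested, 1 by glmTreat (*Slc47a1*), and 3 by limma-voom (with *Slc26a7*). Between LPS_Vehicle and LPS_CPD4645, 0 were lower with limma-voom, voomWithQualityWeights, only the groups compared and glmTreat, and 1 was higher (*Crabp2*) with limma-voom, voomWithQualityWeights and without the 2 shallowest libraries. The cause of these changes was not tested. The sign of *Aldh1a2* between Sham_Vehicle and LPS_CPD4645 turned to -0.072 without LPS_CPD4645 replicate 1 (-0.072 to 0.43 over the mice left out) and to -0.081 without the 2 shallowest libraries, and that of *Ranbp3l* to 0.033 with limma-voom. Of the gene-level values under the alternatives, 647 kept their sign and their side of the threshold, 13 passed it newly, 18 no longer passed it and 3 changed sign.

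With the replicate number as a block, 0 genes were lower and 1 was higher (*Crabp2*, log2 fold change 1.20) between LPS_Vehicle and LPS_CPD4645, *Slc22a6* was at -1.04 (adjusted p = 0.126), and *Slc13a4* passed after LPS at -1.13. Same-numbered mice of different groups had correlations of their deviations from the group means of -0.035 to 0.114, so the numbers were not taken as pairs. Depth limits *Slc22a6*, *Slc47a1*, *Slc26a7* and *Ranbp3l* most, with 1 to 7 counts in single libraries, and DESeq2's size factors moved the median of all genes by at most 0.0095 on the log2 scale. In the gene lists the counts moved both ways between tools, and the following are examples. After LPS, limma-voom called 2 rather than 3 matrix and general fibroblast genes higher and 6 rather than 5 lower. It called 2 rather than 3 pericyte and smooth muscle genes, 3 rather than 2 choroid plexus genes and 0 rather than 1 oligodendrocyte genes lower. It called 1 rather than 2 microglia and border macrophage genes higher after LPS, and 1 rather than 2 of them lower between LPS_Vehicle and LPS_CPD4645. In that comparison it called 3 rather than 2 insulin-like growth factor genes higher. DESeq2 called 2 rather than 3 endothelial genes lower after LPS and, between LPS_Vehicle and LPS_CPD4645, 1 rather than 2 other leptomeningeal and arachnoid genes and 2 rather than 3 solute carrier relatives lower.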

Other observations

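Genes of other cell types of the vessel wall changed after LPS as well. Of 9 pericyte and smooth muscle markers 3 fell, the contractile genes *Myh11* (log2 fold change -1.22, SE 0.25, adjusted p = 0.0021), *Acta2* (-1.15, SE 0.22, adjusted p = 0.00088) and *Tagln* (-1.04, SE 0.17, adjusted p = 0.00018). By the adjusted p alone, 4 of the 9 were lower and 1 was higher. *Pdgfrb* averaged 35.01 CPM in Sham_Vehicle, 45.87 in LPS_Vehicle and 50.92 in LPS_CPD4645 mice. From Sham_Vehicle to LPS_Vehicle mice the mean of *Kcnj8* went from 5.86 to 7.92 CPM. *Abcc9* and the scarce *Cnn1* also had higher means after LPS. *Pdgfrb*, *Kcnj8*, *Abcc9* and *Cnn1* were named after their values were seen. The list summed to 175 to 265 CPM in Sham_Vehicle, 141 to 211 in LPS_Vehicle and 162 to 221 in LPS_CPD4645 libraries. Of 10 endothelial markers 3 fell after LPS, the organic anion carriers *Slco1c1* (-1.47, SE 0.21, adjusted p = 6.8e-05) and *Slco1a4* (-1.12, SE 0.34, adjusted p = 0.0254) and the receptor *Tek* (-1.49, SE 0.31, adjusted p = 0.0019), while *Cdh5*, the adhesion protein of endothelial junctions, rose (1.14, SE 0.16, adjusted p = 5.85e-05). *Pecam1* (0.79, adjusted p = 0.0055), *Slc2a1* (0.76, adjusted p = 0.0066) and *Cldn5* (0.66, adjusted p = 0.0135), named after their values were seen, were higher by less than 2-fold. Between LPS_Vehicle and LPS_CPD4645, 4 of the 10 endothelial markers were lower by the adjusted p alone (16.4% of all genes) and 0 higher (14.1%). From LPS_Vehicle to LPS_CPD4645 mice, means went from 50.5 to 29.0 CPM for *Pecam1*, 322 to 287 for *Slc2a1* and 169 to 114 for *Cldn5*. The endothelial list had a median log2 fold change of 0.0069 after LPS and summed to 438 to 691 CPM in Sham_Vehicle (median 615), 427 to 889 in LPS_Vehicle (median 851) and 525 to 722 in LPS_CPD4645 libraries (median 604). *Slco1c1* stood at 65.9 CPM ± 13.7 (SD, n = 4) in Sham_Vehicle, 23.5 ± 10.1 (n = 5) in LPS_Vehicle and 16.2 ± 1.59 (n = 4) in LPS_CPD4645 mice. *Anpep*, a pericyte peptidase, fell between LPS_Vehicle and LPS_CPD4645 (-1.41, SE 0.28, adjusted p = 0.0011).

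Of 9 genes of microglia and of the macrophages that line the brain's borders, 2 rose after LPS (*Lyve1* and *Cd163*) and 1 fell (*P2ry12*), 2 fell between LPS_Vehicle and LPS_CPD4645 (*Aif1* and *Lyve1*) and 2 fell between Sham_Vehicle and LPS_CPD4645 (*P2ry12* and *Tmem119*). *Lyve1*, a hyaluronan receptor of border macrophages, was at 2.68 (SE 0.55, adjusted p = 0.0020) after LPS and at -2.40 (SE 0.55, adjusted p = 0.0032) between LPS_Vehicle and LPS_CPD4645. The border macrophage genes *Mrc1* (-0.50, adjusted p = 0.518) and *Pf4* (-0.09, adjusted p = 0.923) did not pass after LPS. *Aif1*, a cytoskeletal protein of microglia and macrophages, was at 0.55 (SE 0.20, adjusted p = 0.0550) after LPS and fell between LPS_Vehicle and LPS_CPD4645 (-1.38, SE 0.20, adjusted p = 0.00010). The microglial receptor *P2ry12* was at -3.33 (SE 0.22, adjusted p = 1.52e-08) after LPS and at -3.38 (SE 0.24, adjusted p = 2.65e-08) between Sham_Vehicle and LPS_CPD4645. *Cd163*, *Mrc1* and *Pf4* were named after their values were seen. The ependymal list of 8 genes, which lies at 10.2 to 28.9 CPM in sum over all libraries, had *Rsph1* (-1.68, SE 0.26, adjusted p = 8.08e-05) and *Ccdc153* (-1.51, SE 0.35, adjusted p = 0.0023) lower in LPS_CPD4645 than in Sham_Vehicle mice. The myelin gene *Mobp* rose after LPS (1.24, SE 0.19, adjusted p = 0.00013). Of 7 neuronal markers 0 passed in edgeR in any comparison and 0 by limma-voom and by DESeq2, with 5 lower after LPS at an unadjusted p under 0.05.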
